A study of Mus musculus with 2 samples.

Results

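A set of 10 genes that mark blood vessel endothelium was followed through open chromatin of the neonatal mouse adrenal gland: the receptors Kdr, Flt1, Tek and Tie1, the surface proteins Pecam1 and Cdh5, the secreted factor Egfl7, and the transcription factors Sox17, Sox18 and Erg. These 10 genes were listed by name and found in GENCODE release M21 among 21755 protein-coding genes on chromosomes 1 to 19 and X. DNase-seq was made from adrenal tissue of B6CASTF1/J females aged 4 days, which are F1 hybrids whose alleles were not separated here. The 2 libraries are biological replicates of a single group. Each sample description names 3 females, and the donor identifier is the same for both, so the libraries may share animals or differ in them. With a single group nothing was tested, and every value is given per library.

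Endothelial cells line all vessels, and the adrenal cortex and medulla are threaded by dense sinusoidal capillaries. Kdr and Flt1 are receptors for VEGF, of which Kdr carries most of the growth signal and Flt1 binds VEGF tightly and can act as a decoy; Tek is the angiopoietin receptor and Tie1 its partner. ETS factors such as Erg bind a GGAA core in most known endothelial enhancers, at times beside a forkhead site or with SOXF factors such as Sox17 and Sox18. Intronic enhancers active in endothelium have been described for several of these genes, among them the first introns of Kdr and Tek. In whole tissue, fewer cells of a type and less accessibility per cell cannot be told apart.

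DNase I cuts open chromatin, so a peak marks an accessible region and a footprint a short run of protected bases within it. The deposited peak lists hold 46031 peaks in replicate 1 and 87387 in replicate 2, with 98364 and 141983 footprints; 39266 peaks of replicate 2 overlap one of replicate 1 and are called shared. Each peak carries a signal value set by the authors with no stated scaling, so signals are compared within a library only. Read depth is unknown. Among markers of the tissue, a peak within 1 kb of a transcription start site (TSS) was present in both libraries at 2 of 6 adrenal cortex genes (Nr5a1 and Cyp11a1) and 2 of 6 chromaffin genes (Chga and Chgb); Hsd3b1, Cyp11b1, Mc2r, Th, Dbh and Pnmt had none in either library. The same held for 1 of 6 leukocyte and 3 of 6 mural and fibroblast genes.

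The sequences that carry the comparison of introns with promoters are given first, as mm10 reference bases on the strand of the gene. They were chosen after the values were seen, because no shared peak of the 10 genes held an ETS match overlapped by a footprint in both libraries. In the first set, the 3 shared intronic peaks, capitals mark bases under a footprint in both libraries. The Flt1 peak lies at chr5:147584081-147584240 in intron 20 of 29, and the Pecam1 peaks at chr11:106678101-106678280 in intron 13 of 14 and chr11:106658084-106658294 in intron 14 of 14.
Flt1 intron 20: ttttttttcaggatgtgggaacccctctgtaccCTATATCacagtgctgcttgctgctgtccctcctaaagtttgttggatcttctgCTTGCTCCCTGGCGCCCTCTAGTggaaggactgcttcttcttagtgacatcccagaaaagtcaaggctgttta
Pecam1 intron 13: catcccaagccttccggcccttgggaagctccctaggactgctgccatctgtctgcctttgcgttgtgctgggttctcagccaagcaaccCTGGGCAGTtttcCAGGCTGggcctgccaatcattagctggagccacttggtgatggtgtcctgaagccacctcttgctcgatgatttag
Pecam1 intron 14: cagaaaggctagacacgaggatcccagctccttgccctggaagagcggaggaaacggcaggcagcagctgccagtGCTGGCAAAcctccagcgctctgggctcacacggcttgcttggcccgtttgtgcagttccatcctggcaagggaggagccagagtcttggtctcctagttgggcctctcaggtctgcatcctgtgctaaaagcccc

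The second set holds ETS words at these genes, in capitals. The Flt1 stretch, chr5:147726012-147726140, is the upstream part of its promoter peak with AGGAAGT. The Erg stretch, chr16:95570721-95570880, is the strongest intronic peak of Erg, called in replicate 2 alone, with AGGAAGT; 60% of it is masked as repeat in the reference.
Flt1 promoter: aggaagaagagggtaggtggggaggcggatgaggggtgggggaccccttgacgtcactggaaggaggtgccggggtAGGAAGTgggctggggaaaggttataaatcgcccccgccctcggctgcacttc
Erg intron: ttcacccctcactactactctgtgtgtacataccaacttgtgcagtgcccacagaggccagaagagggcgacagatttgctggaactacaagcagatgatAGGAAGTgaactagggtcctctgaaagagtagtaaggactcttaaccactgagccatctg

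The third set holds distal peaks that were stronger than the promoters of their genes, with capitals again at bases under a footprint in both libraries. They lie at chr16:95605421-95605580 upstream of Erg, chr8:104146441-104146600 past the 3′ end of Cdh5 and chr2:181659681-181659840 past the 3′ end of Sox18.
Erg upstream: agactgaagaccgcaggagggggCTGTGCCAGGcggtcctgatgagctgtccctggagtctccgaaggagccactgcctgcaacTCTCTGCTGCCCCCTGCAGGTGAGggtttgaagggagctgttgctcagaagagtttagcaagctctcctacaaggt
Cdh5 downstream: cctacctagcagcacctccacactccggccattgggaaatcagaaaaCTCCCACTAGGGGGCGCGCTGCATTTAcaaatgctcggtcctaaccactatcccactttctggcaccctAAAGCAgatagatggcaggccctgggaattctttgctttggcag
Sox18 downstream: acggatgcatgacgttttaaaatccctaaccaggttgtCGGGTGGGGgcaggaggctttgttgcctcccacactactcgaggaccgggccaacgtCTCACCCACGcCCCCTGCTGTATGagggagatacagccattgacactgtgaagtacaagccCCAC

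Promoters of the endothelial genes were open weakly or in part. Of the 10, Kdr, Flt1, Sox17, Erg and Egfl7 had a TSS peak in both libraries, or 5 of 10, against 61.3% of all protein-coding genes. A further 3 genes, Tie1, Cdh5 and Sox18, had one in replicate 2 alone, which was the case for 5.00% of all genes. Tek and Pecam1 had none. The strongest TSS peak of the 5 open genes had a median signal of 0.776 in replicate 1 and 1.59 in replicate 2, against 2.11 and 4.33 over the 13346 genes open in both. In each library all 5 lay below that median.

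Among the receptors, Kdr had 2 shared TSS peaks, both overlapped by a single wide replicate 1 peak of signal 0.7761. In replicate 2 the upstream one, chr5:75978441-75978700, reached 1.592 and the one inside the first part of the gene, chr5:75978201-75978400, reached 0.862. The strongest stood at percentile 9.47 in replicate 1 and 13.3 in replicate 2 among the open genes. The Kdr promoter was thus called in both libraries, near the low end of the range. It was also the only shared element of the locus. Another promoter peak, of 0.6333 in replicate 2 alone, lay 775 bp inside the gene, outside its exons. Beyond 1 kb of the TSS no intronic peak was called in either library; the introns of Kdr span 36602 bp. Outside the promoter, replicate 1 had a peak of 0.5032 and replicate 2 a separate, non-overlapping peak of 0.6597 close to the 3′ end, both in exon sequence, and replicate 2 had a distal peak of 0.7917.

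Flt1 had 2 shared TSS peaks, again under 1 replicate 1 peak, of signal 1.134. Their replicate 2 signals were 1.627 at chr5:147725601-147725860 and 1.416 at chr5:147725861-147726140. The promoter stood at percentiles 20.5 and 13.8 of the open genes. A shared exonic peak at chr5:147645341-147645520, in the middle of the gene, had signals of 0.6737 and 1.566. Of the 4 receptors, Flt1 was the one with shared peaks outside its promoter, apart from peaks at the TSSs of other genes.

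Tek had no peak at all: in its 135688 bp and 50 kb to either side, neither library listed a peak, a footprint or a base with a false discovery rate below 0.05. Among all protein-coding genes, 5.56% had no peak of either library at a TSS, in the gene or within 50 kb. Tie1 had 1 TSS peak, of signal 0.5893 in replicate 2, at percentile 0.892 of the open genes, and no intronic peak in either library. Within 50 kb of Tie1, 3 shared peaks lay at the TSSs of Cdc20 and Elovl1, which are not endothelial genes; no other shared peak did. Within the gene body, Tie1 had 0 bp in replicate 1 and 34 bp in replicate 2 with a false discovery rate below 0.05, beside 415 and 627 bp in Kdr.

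Pecam1, a surface protein of endothelial junctions and of leukocytes, had no TSS peak in either library at any of its 8 annotated TSSs. Cdh5, the cadherin of endothelial junctions, had a promoter peak in replicate 2 alone, of signal 0.9148 and a lowest false discovery rate of 0.0109. This peak ended just inside the gene: within the gene body of Cdh5, 7 bp in replicate 2 and 0 bp in replicate 1 had a false discovery rate below 0.05. Neither junction gene therefore had a promoter called in both libraries.

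Egfl7, a secreted protein of developing vessels, had the strongest promoter of the 10 genes, 1.313 in replicate 1 and 2.604 in replicate 2 at chr2:26586821-26587020. That peak lay at an internal TSS, 6907 bp from the 5′ end, and also within 1 kb of a TSS of the overlapping gene Gm20532, so it cannot be assigned to Egfl7 alone. It stood at percentiles 25.9 and 26.8 of the open genes. Another internal TSS of Egfl7 had a peak of 1.047 in replicate 2 alone, at chr2:26583794-26583860. The centre of that peak was 37 bp from the TSS, and no TSS of another coding gene lay within 1 kb. Near Gm20532 there were also a peak of 0.9148 in replicate 2 alone and one of 0.8443 in replicate 1 alone. At the 5′ end of Egfl7 as annotated there was no peak in either library.

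Of the transcription factors, Erg had a shared TSS peak at chr16:95585601-95585860, 862 bp inside the gene, with signals of 0.5373 and 1.038. That was percentile 2.6 in replicate 1 and 5.96 in replicate 2. Sox17 had 2 shared TSS peaks, near internal TSSs, with signals of 0.5458 and 0.5454 at chr1:4492491-4492710 and of 0.6482 and 0.4574 at chr1:4493241-4493394. The centre of the first was 1003 bp from the nearest Sox17 TSS, so it reached only the edge of the window. Replicate 1 by itself had 1 TSS peak at Sox17, that of 0.6482. The strongest Sox17 peak of replicate 2, 0.8884, was a different one, called there alone, and the 5′ end of the gene had a peak of 0.6861 in replicate 2 alone. Sox18 had 1 TSS peak, of 1.355, in replicate 2 alone. None of the 3 factors had a promoter above percentile 10.1 of the open genes in a library where it was called.

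**Figure D1:**
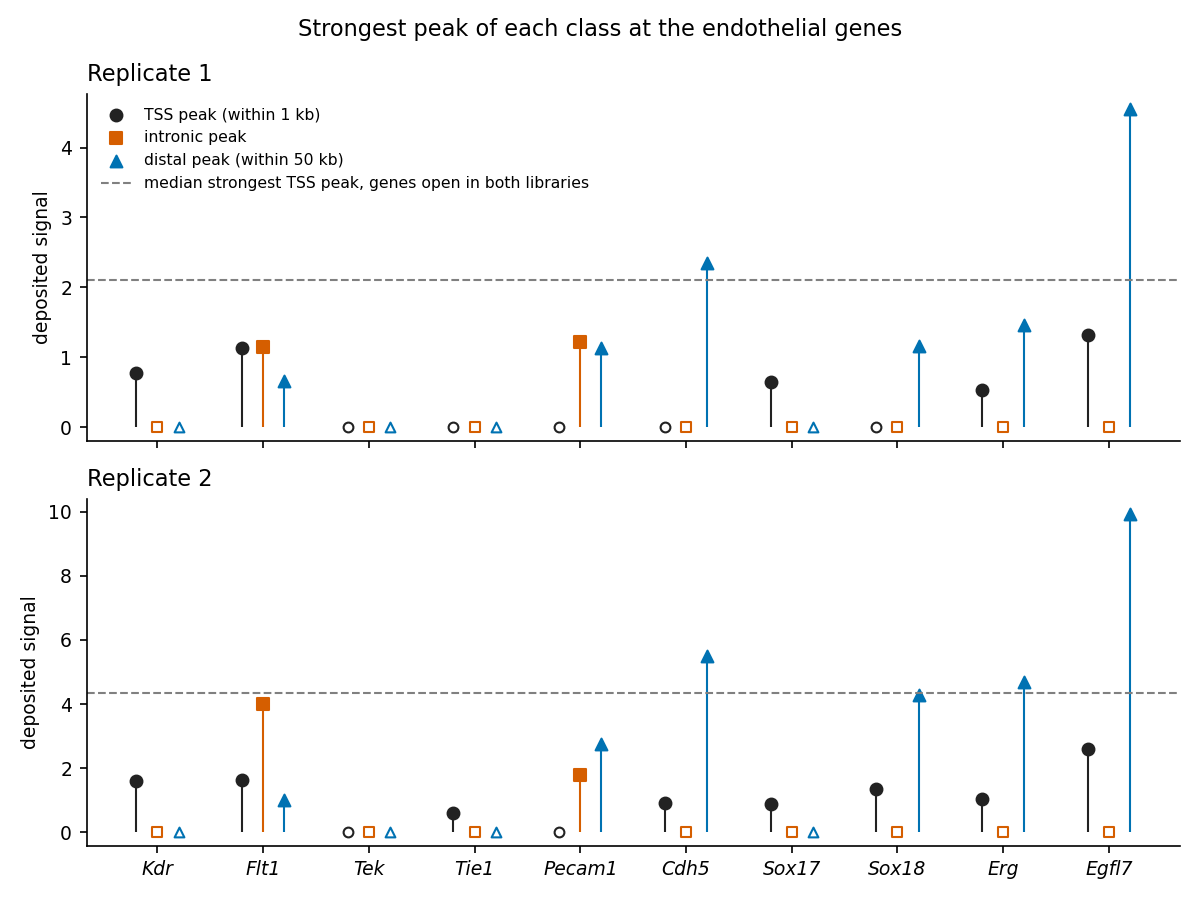
Deposited signal (y axis, linear, authors' scaling) of the strongest TSS peak and of the strongest shared intronic and shared distal peak of each gene, in replicate 1 (top) and replicate 2 (bottom), with open symbols at 0 where there is none and a dashed line at the median strongest TSS peak of genes open in both libraries (2.11 and 4.33). All TSS peaks lie below the line, while the distal peaks of Cdh5 and Egfl7 lie above it in both libraries and that of Erg in replicate 2.

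Intronic peaks were few. Both libraries shared 3 of them, in 2 of 10 genes, Flt1 and Pecam1, whereas 19.2% of all protein-coding genes had a shared intronic peak. The 10 genes hold 697 kb of intron, which gives 0.431 shared intronic peaks per 100 kb, beside 0.79 per 100 kb over all protein-coding genes. One more intronic peak was called in replicate 1 alone, in Flt1 with a signal of 0.597. In replicate 2 alone 9 were called, 7 in Erg with signals of 0.6069 to 1.46 and 2 in Pecam1 with 1.416 and 0.8005. Replicate 2 has more peaks over the whole genome, and the part of that in these counts was not tested.

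The Flt1 intron 20 peak was the strongest of the intronic peaks in replicate 2, and its sequence opens the first set above. It lies 141850 bp from the 5′ end and 31081 bp from the nearest annotated Flt1 TSS. Its signal was 1.143 in replicate 1, at percentile 61.3 of all peaks of that library, and 3.993 in replicate 2, at percentile 88.6. The lowest false discovery rate under the peak was 6.27e-07 in replicate 1 and 8.07e-19 in replicate 2. Each library placed 2 footprints in it. The capital runs of the printed sequence are the bases protected in both.

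In Pecam1, the intron 13 peak had signals of 1.22 and 1.786 and the intron 14 peak of 0.887 and 1.469. They lie 72437 and 92439 bp from the 5′ end, in the last part of the gene. Both carried 1 footprint in replicate 1 and 2 in replicate 2. All 3 intronic peaks were also in the stricter peak list of each library, as were 3 of the 8 shared TSS peaks of the 10 genes. Of the 16 shared distal peaks, 7 were. The same shares over all shared peaks were not counted, so the classes are not compared on this.

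In both genes with a shared intronic peak, the strongest one exceeded the strongest TSS peak in each library, 2 of 2, and the same held for 38.3% of the 4174 genes with a shared intronic peak. For Pecam1 there was no TSS peak to exceed. For Flt1 the difference in replicate 1 was 0.00853, about 1 step of the deposited scale in that library (0.0085), so that the intron and the promoter were level there. In replicate 2 the Flt1 intron was at 3.993 and the promoter at 1.627. The order of intron and promoter at Flt1 therefore rests on replicate 2.

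**Figure D2:**
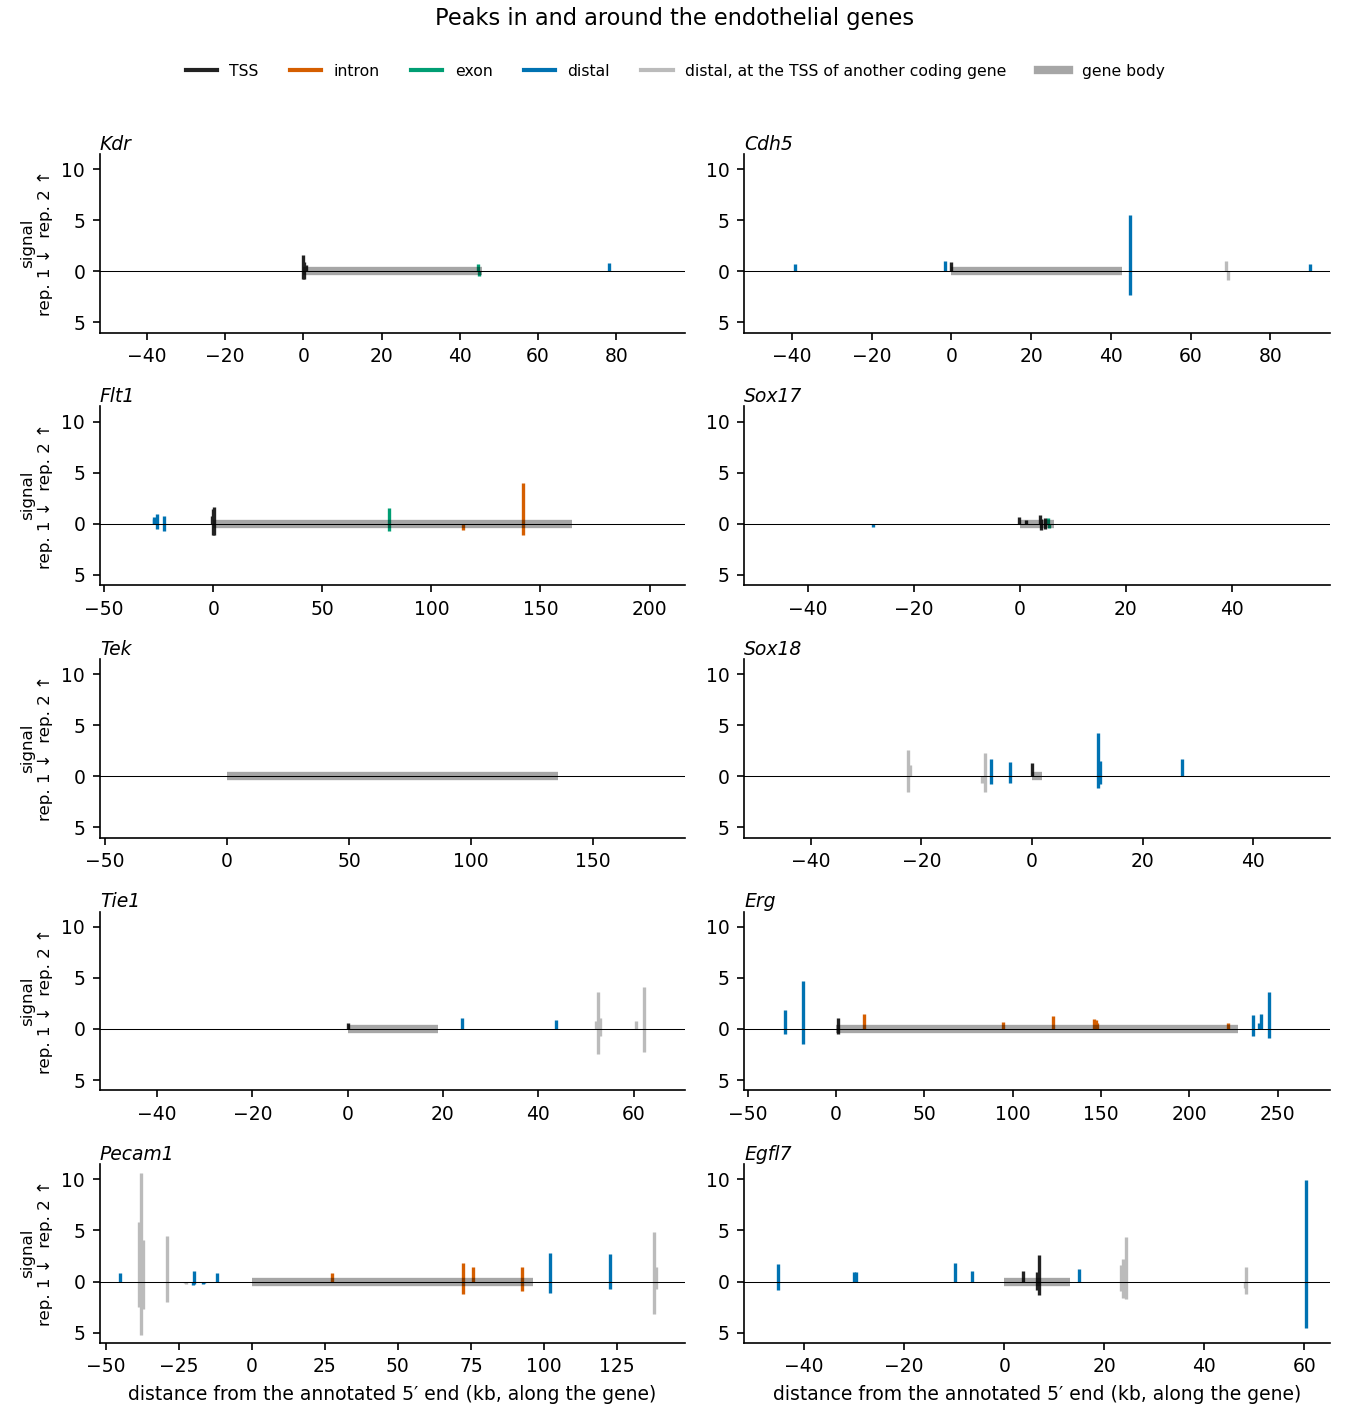
Peaks of replicate 2 (upward) and replicate 1 (downward) in each gene (grey bar) and 50 kb to either side, by distance from the annotated 5′ end in kb along the gene (x axis, scaled per gene), with bar height as deposited signal and colour as class. Tek has no bar, Kdr has bars at its ends alone within the gene, and the tall blue bars of Cdh5, Sox18, Erg and Egfl7 stand outside the gene bodies.

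Outside the gene bodies, shared distal peaks within 50 kb were more frequent than intronic ones: 16 in 6 genes, or 1.6 per gene beside 1.33 over all protein-coding genes. In all, 6 of 10 genes had one, against 59.9% of all genes. In 5 of the 6, Pecam1, Cdh5, Sox18, Erg and Egfl7, the strongest distal peak exceeded the strongest TSS peak in both libraries, a missing TSS peak counting as 0, and the same held for 47.6% of the 13038 genes with a shared distal peak. Pecam1 lacked a TSS peak in each library, and Cdh5 and Sox18 lacked one in replicate 1, so only Erg and Egfl7 had a promoter peak to exceed in each. For Egfl7 the order rested on a single distal peak, which lies within 1 kb of TSSs of noncoding genes. The other shared distal peak of Egfl7, of 0.8614 and 1.715, was below its strongest TSS peak in both libraries. Another 15 shared peaks in these windows overlapped the TSS of a different protein-coding gene and were left out. A peak within 50 kb is near a gene and is not thereby shown to act on it.

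The strongest was at Egfl7, chr2:26640241-26640380, with signals of 4.546 and 9.913 and percentile 99.2 of all peaks in each library. It lies at the TSS of the noncoding genes Snhg7os and Snora17, 60297 bp from the 5′ end of Egfl7, and its nearest TSS of a coding gene is that of Fam69b. The Cdh5 peak printed above had signals of 2.345 and 5.489, at percentiles 86.7 and 93.7, while the Cdh5 promoter was absent from replicate 1. It lies 44896 bp from the 5′ end of a gene of 42887 bp. Thus the strongest open region at the Cdh5 locus was just past the end of the gene.

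Erg had 4 shared distal peaks. The strongest, 18908 bp upstream, had signals of 1.458 and 4.697, against 0.5373 and 1.038 at the promoter. The next, chr16:95341521-95341800, past the 3′ end, had 0.887 and 3.598. Sox18 also had 4, the strongest being 11879 bp past its 5′ end on the 3′ side, with 1.16 and 4.284; its nearest TSS of a coding gene was that of Gm29797. For Erg the strongest distal peak was above the promoter in each library, while the weakest, 0.5032 in replicate 1, was just below it there. For Sox18 the promoter had no replicate 1 peak to compare with, and all 4 distal peaks were above the promoter in replicate 2.

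Pecam1 had 3 shared distal peaks, the strongest at chr11:106648421-106648580 on its 3′ side with 1.134 and 2.762. A second on that side had 0.7249 and 2.683. The third, on the upstream side, was listed at 0.2729 in replicate 1, percentile 1.81 of that library, yet with a lowest false discovery rate of 8.87e-10 there. Its sequence is wholly lower case, the mark of masked repeats, in the reference. Neighbouring peaks of replicate 1 paired a low signal with a low false discovery rate in the same way, 0.2047 with 2.15e-05 and 0.307 with 2.18e-11.

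Flt1 had 2 weak shared distal peaks upstream, of 0.6652 and 0.7917 and of 0.5373 and 0.994, both below its promoter. Kdr, Tek, Tie1 and Sox17 had no shared distal peak apart from those at other genes' TSSs.

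**Figure D3:**
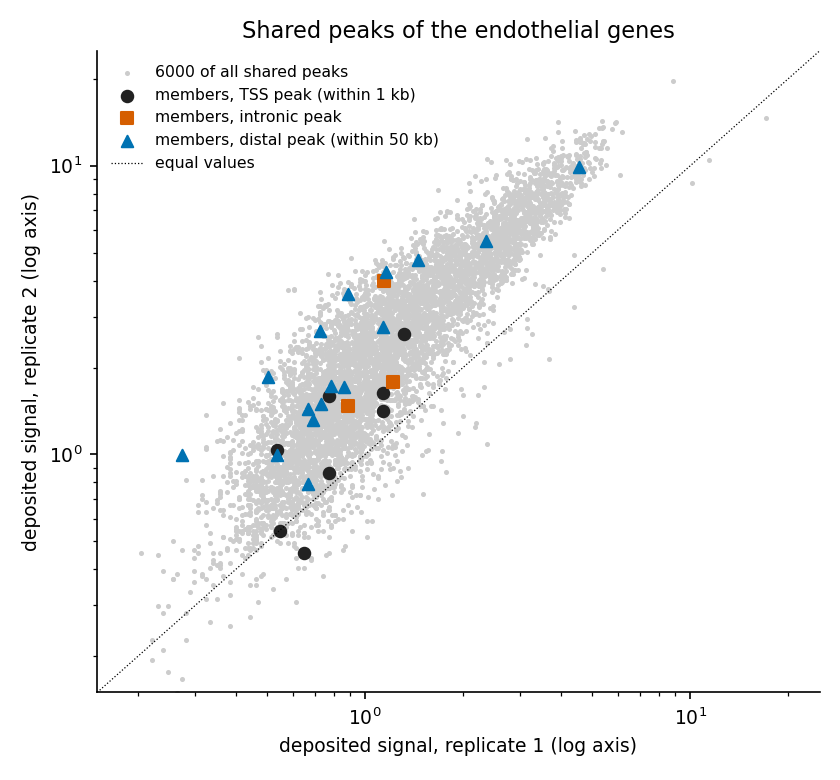
Deposited signal of shared peaks in replicate 1 (x axis) and replicate 2 (y axis), both on log axes, for the TSS, intronic and distal peaks of the 10 genes (colours) and for 6000 of the 39266 shared peaks drawn at random (grey); the dotted line marks equal values. The distal peaks of the genes reach 4.546 and 9.913, whereas none of their TSS peaks is above 1.313 and 2.604.

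The promoters and the intronic peaks differed in base composition in the way of their classes. Over 200 bp around the centre, the 8 shared TSS peaks had a GC content of 65 to 70.5% and an observed over expected CpG ratio of 0.746 to 0.91. The 3 intronic peaks had 49.5 to 60.5% and 0.165 to 0.328, with no overlap in either measure. The shares of all TSS and intronic peaks within these ranges were not counted. Over all protein-coding genes the medians were 66% and 0.803 at TSS peaks, and 53.5% and 0.253 at intronic peaks. The 16 distal peaks ranged from 40.5 to 65.5% and from 0 to 0.905, across both classes. The shared promoter peaks of these genes are thus of the CpG-rich kind. Some TSS peaks called in replicate 2 alone had lower ratios, such as 0.213 at Cdh5, 0.264 at Tie1 and 0.358 at an internal TSS of Sox17. The ratios at Cdh5 and Tie1 lie within the range of the intronic peaks.

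**Figure D4:**
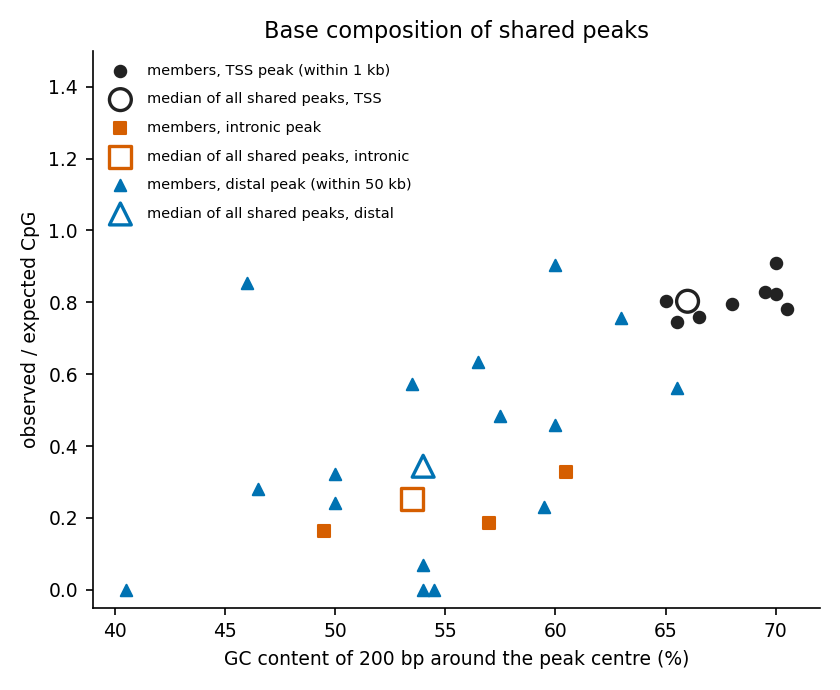
GC content (x axis, %) and observed over expected CpG ratio (y axis) of 200 bp around the centre of each shared peak of the 10 genes (filled), with large open symbols at the medians of all shared peaks of each class. TSS peaks lie at 65% GC or more and at a ratio of 0.746 or more, and the intronic peaks at 60.5% or less and 0.328 or less.

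ETS words were present in 1 shared promoter peak and 1 shared distal peak, too few to compare their frequency with that in all peaks. The words searched were CGGAAGT and AGGAAGT, on both strands, in 200 bp around the centre. A match was present in 1 of 8 shared TSS peaks, that of Flt1, against 11.4% of all shared TSS peaks of protein-coding genes. It was present in 0 of 3 intronic peaks, against 6.03%, and in 1 of 16 distal peaks, against 6.66%. The Flt1 match, chr5:147726058-147726064, is 50 bp upstream of the 5′ end. The distal match, chr2:26534757-26534763, lies upstream of Egfl7, across the edge of its peak at chr2:26534761-26534940, so it is partly outside the called peak. That peak had signals of 0.8614 and 1.715, and its nearest coding TSS is that of Notch1.

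No footprint of either library overlapped these 2 matches. Over all genes, both libraries placed a footprint on 17.0% of ETS matches in shared TSS peaks, 6.02% of those in intronic peaks and 9.08% of those in distal peaks. Only 2 matches at the 10 genes entered this count. The AGGAAGT of the Erg intronic peak, printed above from a peak of replicate 2 alone, also had no footprint over it, although that peak carried 1 footprint elsewhere. Other peaks of replicate 2 alone held AGGAAGT in their 200 bp as well. Among them were TSS peaks at an internal TSS of Egfl7, within ACAGGAAGT, and near the 5′ end of Sox17. Both of these TSS matches lay just outside the called peak. The word was also at another intronic peak of Erg and at distal peaks of Cdh5 and Egfl7. None of these matches had a footprint over it.

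The other words gave similarly small counts. The looser ETS core, CCGGAA or CAGGAA, was in 2 TSS, 1 intronic and 5 distal shared peaks, where 31.2%, 27.9% and 29.3% of all peaks of those classes hold it. The composite forkhead and ETS word AACAGGAA was in no shared TSS, intronic or distal peak, against 0.968%, 1.74% and 1.62%. Of peaks called in replicate 2 alone, the Cdh5 promoter peak held it, 57 bp upstream of the 5′ end. A distal peak upstream of Pecam1, also of replicate 2 alone, held it too. Neither match had a footprint over it. SOX words, ACAATG or ACAAAG, were in 4 distal peaks and in no TSS or intronic peak, against 19.1%, 10.8% and 20.2%. Of these 4 distal SOX matches, 1 was under a footprint in both libraries, at chr16:95341633-95341638 past the 3′ end of Erg. Its peak carried 3 footprints in replicate 1 and 4 in replicate 2. The share of all SOX matches under a footprint was not counted. The forkhead word GTAAACA was in no shared TSS, intronic or distal peak of the 10 genes, against 1.26%, 2.23% and 1.9%. The same was true of the AP-1 word TGACTCA, against 2.07%, 7.48% and 6.19%. The GATA word AGATAA was likewise missing from them, against 2.07%, 6.38% and 5.41%. At such low shares, counts of 0 in so few peaks are not read as a lack. The promoter word GGGCGG, bound by SP and KLF factors, was in 3 of the 8 TSS peaks and 3 of the 16 distal peaks, where 58.1% and 18.7% of all peaks of those classes hold it. The word CAAGGTCA of the steroidogenic factor SF-1 was in 1 of the 8 TSS peaks, at Sox17, against 0.706%. This single match had no footprint over it in either library. Its peak lay at the edge of the TSS window and was in neither of the stricter lists. A word is a description of the bases, and its absence says only that these letters are not in the window.

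A CTCF consensus, searched by name after the peak sequences had been seen, was found in several of the strongest peaks. CTCF binds a long motif and is known for chromatin loop anchors and insulators, and it leaves a clear footprint. The consensus was in the Flt1 intron 20 peak, so in 1 of 3 intronic peaks, against 31.0% of all shared intronic peaks, and in 8 of 16 distal peaks, against 32.9%. It was in 1 of 8 TSS peaks, at Sox17, against 8.04%, under a footprint of replicate 2 alone. The Erg intronic peak printed above also held it, under a footprint of replicate 2. Both libraries had a footprint over the Flt1 match and over 7 of the 8 distal matches; over all genes that was so for 83.4% of matches in intronic peaks and 85.2% in distal peaks. The 7 lie at Pecam1, Cdh5, Sox18, Egfl7 and, 3 of them, Erg. The strongest distal peaks of Pecam1, Cdh5, Erg and Egfl7 are among them, and that of Sox18 is not. In the printed sequences of the Flt1 intron, Erg upstream and Cdh5 downstream peaks, the long run of capitals overlaps the match.

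Other genes of the same pathways were followed in lists chosen for their role. Of 8 genes for VEGF and angiopoietin ligands, 5 were open at a TSS in each library, led by Vegfa with 2.456 and 6.131, Pgf with 1.936 and 4.495, and Vegfb with 1.305 and 1.715. Angpt4 had none. Of 10 co-receptors and modulators, 5 had one, led by Notch4 with 4.017 and 6.65, Notch1 with 1.799 and 2.41, and Nrp2 with 1.655 and 2.023. The Pgf and Notch1 peaks were at internal TSSs, with none at the annotated 5′ end in either library. The strongest Notch4 peak was also at an internal TSS, and its 5′ end had a peak of 0.9588 in replicate 2 alone. The promoter peak of the ligand gene Vegfa was stronger in each library than those of Kdr, Flt1, Tek and Tie1. It was weaker than the internal TSS peak of Notch4.

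All 8 listed genes of ETS factors were open at a TSS in each library, led by Elf1 with 3.897 and 8.189, Ets1 with 3.403 and 6.606, and Ets2 with 2.055 and 4.847. Several of them are expressed in most cell types. The Ets1 peak was at an internal TSS, with none at the annotated 5′ end in either library. Of 10 other transcription factors of endothelium, 8 were open, led by Klf2 with 3.59 and 7.609, Klf4 with 3.036 and 6.412, and Hhex with 2.848 and 5.172. Of 10 further endothelial surface and junction genes, 4 were open, led by Vwf with 2.2 and 6.166, Esam with 1.092 and 1.75, and Ramp2 with 1.015 and 0.9852. For Vwf that peak was at an internal TSS, and the annotated 5′ end had none in either library. The open share of 61.3% over all genes lies between that of the surface genes and those of the factors.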

How the data were processed

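DNase-seq of mouse adrenal gland was deposited for 2 libraries, each with 2 peak lists, 1 footprint list and 1 list of false discovery rates on mm10, per the file headers and the labels. Column 7 of the peak lists is a signal that the authors deposited with no stated scaling. The deposited false discovery rates are adjusted p-values, listed below 0.05 only, and the footprint lists carry a p-value of 0.01 throughout and no score. No header or label used here names the caller, the read depth or the filters, so no counting error could be given.

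Python 3.11.15, numpy 2.4.6 and pandas 2.3.3 set the longer peak lists against GENCODE M21. A shared peak is a replicate 2 peak overlapped by at least 1 bp of a replicate 1 peak, whose strongest match gives the replicate 1 signal. TSS peaks overlapped 1 kb to either side of any annotated TSS of the gene; intronic peaks had their centre in the gene outside its exons and were no TSS peak; distal peaks had theirs outside the gene within 50 kb, off other coding TSSs. Words were searched in 200 bp around the centre. The genes, lists and words were chosen with earlier results of these data known, and the CTCF consensus after these values were seen. Every member was named; of each list, the 3 genes with the strongest TSS peaks. Peak matching was tested on simulated intervals. Reads of both parental genomes were placed on a C57BL/6J reference, and an effect of this on single peaks was not tested. One sequence is not reported here.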

Additional observations from a re-analysis of the deposited data

How the results depend on the processing

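Of 65 alternatives over 8 counts, 51 left the count within 1.5 times its reported value. The number of genes with a TSS peak in both libraries, 5, ranged from 5 to 8 when 1 library was left out (8 without replicate 1), and was 2 with the stricter peak lists and 3 with the annotated 5′ end alone. Shared intronic peaks, 3, ranged from 4 to 12 in a single library (12 without replicate 1). Shared distal peaks, 16, ranged from 20 to 34 in a single library (34 without replicate 1), and were 7 with the stricter lists and 39 within 100 kb. Intronic peaks with an ETS match, 0, ranged from 0 to 2 in a single library (2 without replicate 1) and were 1 with the looser word. TSS peaks with an ETS match, 1, ranged from 0 without replicate 2 to 3 without replicate 1, were 0 with 50% reciprocal overlap, 2 with the looser word and 0 with the stricter word. Genes with a shared intronic peak, and those whose intronic peak exceeded the TSS peak, stayed at 2 or 3 under the alternatives run for them, and ETS matches under a footprint in both libraries at 0. The cause of these differences was not tested. No paired analysis was possible because the labels give a single group.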

Other observations

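Shared intronic peaks were present at 4 of 8 VEGF and angiopoietin ligand genes, 4 of 10 co-receptor and modulator genes and 3 of 8 ETS factor genes. They were present at 2 of 10 other endothelial factor genes and 3 of 10 surface and junction genes, beside 19.2% of all protein-coding genes. Angpt4, an angiopoietin ligand gene with no TSS peak, had 2, up to 1.987 and 6.729. Vwf, the clotting factor stored in endothelial granules, had 3 shared intronic peaks, the strongest with signals of 1.39 and 3.914. Mef2c had 2, up to 1.075 and 4.715, and Elk3, an ETS factor, had 4, up to 1.586 and 3.747. Ptprb, a phosphatase that acts on the Tek receptor, had 1 at 0.6482 and 2.973 with a TSS peak in replicate 2 alone, and Mmrn2, an endothelial matrix protein, had 1 at 1.33 and 3.008, likewise with a TSS peak in replicate 2 alone. Nr2f2, a factor of venous endothelium that adrenal stroma can also express, had 1 at 2.644 and 3.993. These genes were picked after their values were seen. Marker genes of other cell types also had shared intronic peaks: the leukocyte factor gene Spi1 1 at 2.524 and 8.726, the mural receptor gene Pdgfrb 1 at 2.004 and 6.395, and Th, the first enzyme of catecholamine synthesis, 3 of up to 1.97 and 5.137. Emcn and Cldn5 had neither a TSS peak nor a shared intronic or distal peak.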
